A study of Mus musculus with 18 samples.

Results

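Mouse astrocyte cultures were compared at 72 h and at 24 h after the start of differentiation, both without TNF. The comparison rests on 6 of the 18 RNA-sequencing libraries of the study, the 3 untreated libraries of each time, which were taken by their labels, and it covers every gene that passed the expression filter. The cells were neural stem cells isolated at embryonic day 14 from the ventricular zone of single brains of wild type C57BL/6J mice. They grew as free-floating neurospheres (NSPs) with 20 ng/ml EGF and were then plated on poly-L-ornithine in medium with 10% fetal bovine serum and without added EGF, so the 24 h and 72 h cultures shared serum, coating and the absence of TNF and differed in time. The study also sequenced NSPs, untreated cultures at 1 week and cultures kept in TNF at 50 ng/ml for 24 h or 72 h, each with 3 libraries. The labels number the replicates but do not say whether they came from separate cultures or brains, and the methods of the study speak of independent biological experiments for its data in general, without naming these libraries, so p-values measure only the spread between libraries. That spread was estimated for each gene over all 18 libraries, and a fit of the 6 libraries alone called 5538 genes in place of 4970. The cultures are a model of cells from 1 region at 1 embryonic day, kept outside the brain.

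Neural stem cells leave the cell cycle when growth factor is withdrawn and serum is added, and most then take on the intermediate filaments, transporters and secreted proteins of astrocytes. Astrocytes supply the brain with cholesterol-carrying lipoproteins, clear glutamate and potassium, and shape the extracellular matrix. Radial glia of the ventricular wall are also the source of ependymal cells, which carry motile cilia.

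Total counts ranged from 12509693 to 17819701 in the 24 h libraries and from 12598024 to 19106651 in the 72 h libraries. Mitochondrial ribosomal RNA took 1.69% to 3.91% of counts at 24 h and 2.27% to 2.56% at 72 h. Levels are given for replicates 1, 2 and 3 in that order as CPM, the counts of a gene for every 1000000 counts of the library after TMM scaling of library sizes, and means as mean ± SD with n = 3. A log2 fold change is 72 h over 24 h with its standard error (SE) from edgeR, with 3 libraries in each group, and a gene is said to rise or fall where its p-value, adjusted by the method of Benjamini and Hochberg, was below 0.05.

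The astrocyte label was checked against marker lists. Of 32 astrocyte markers, 31 were measurable, and their summed level was 11100 to 11500 CPM at 24 h and 13100 to 17900 CPM at 72 h; the exception, the connexin gene Gjb6, had 1 to 9 counts per library. The same sum was 9840 to 12800 CPM in NSPs and 9520 to 10700 CPM at 1 week, so that it did not set the 24 h cultures apart from NSPs. Microglia and macrophage markers summed to 5.59 to 6.44 CPM at 24 h and 4.07 to 6.13 CPM at 72 h. Of these 15 markers, 4 passed the filter and none was called, and the complement genes C1qa, C1qb and C1qc had 0 counts in all 6 libraries. Endothelial markers summed to 7.63 to 8.07 CPM and 8.63 to 10.9 CPM, with 6 of 12 tested and none called, and Cdh5 had 0 counts in all 6 libraries. Markers of fibroblasts and mural cells summed to 61.3 to 68.9 CPM at 24 h and 42.4 to 51.9 CPM at 72 h, nearly all of it Cspg4, Prrx1 and Pdgfra, which neural precursors also express; Lum and Twist1 had 0 counts in all 6.

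Of 20067 genes tested, 12.2% were higher and 12.6% were lower at 72 h, 24.8% in all. With 1 library left out, whichever it was, the number called was between 3494 and 5200, beside 4970 with all 6. Among the 2439 genes that rose, 1133 changed at least 2-fold, 409 at least 4-fold and 44 at least 16-fold. Among the 2531 that fell, the same thresholds were passed by 1548, 519 and 73 genes. The genes that rose held 12.3% ± 0.688 (SD, n = 3) of all counts at 24 h and 21.4% ± 1.12 at 72 h, and the genes that fell held 17% ± 0.11 and 9.29% ± 0.443. These shares describe genes chosen on the same libraries and are given without a test. All 72 h libraries lay above all 24 h libraries for 21.0% of the tested genes and below all of them for 20.3%.

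Genes were ranked by fold change where they were called, averaged 2 CPM or more over the 6 libraries, had times that did not overlap and did not carry a predicted-gene or clone symbol. The largest increase was then in Dnah6, which encodes a heavy chain of the dynein arms that bend motile cilia. It measured 0.0756, 0.168 and 0.0815 CPM at 24 h and 23.8, 31.8 and 18.8 CPM at 72 h, with a log2 fold change of 7.66 ± 0.73 (edgeR adjusted p = 6.85e-07). With 5 counts in the 24 h libraries together and 1175 in the 72 h libraries, the ratio of scaled counts was 214, with a 95% counting interval of 91.4 to 660. A second cilium gene, Drc7, part of the complex that regulates dynein, measured 0.302, 0.335 and 0.244 CPM at 24 h and 7.95, 10.2 and 9.69 CPM at 72 h, with a log2 fold change of 4.92 ± 0.56 (edgeR adjusted p = 8.1e-06).

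Slco1a6, an organic anion transporter, measured 0.0756, 0.0559 and 0 CPM at 24 h and 14.5, 6.07 and 5.56 CPM at 72 h, with a log2 fold change of 7.33 ± 0.75 (edgeR adjusted p = 1.49e-06); it had 2 counts at 24 h, and the ratio of 178 has an interval of 49.0 to 1480. Several of the other strong increases were in genes for secreted and matrix proteins. Complement C3, the central protein of the complement cascade, measured 1.21, 1.73 and 6.76 CPM at 24 h and 104, 128 and 117 CPM at 72 h, with a log2 fold change of 5.22 ± 0.57 (edgeR adjusted p = 2.95e-06). The third 24 h library lay above the other two, every 72 h library lay far above it, and without it the log2 fold change was 6.28. Prelp, a small leucine-rich proteoglycan, measured 3.1, 4.36 and 4.73 CPM at 24 h and 115, 109 and 74.7 CPM at 72 h, with a log2 fold change of 4.61 ± 0.31 (edgeR adjusted p = 2.41e-08). Ccn5, a matricellular protein, measured 2.8, 3.63 and 3.18 CPM at 24 h and 86.3, 91.1 and 110.0 CPM at 72 h, with a log2 fold change of 4.89 ± 0.46 (edgeR adjusted p = 6.73e-07). Ucma, a secreted matrix protein first known from cartilage, measured 2.27, 1.45 and 1.22 CPM at 24 h and 53.4, 76 and 78.5 CPM at 72 h, with a log2 fold change of 5.39 ± 0.45 (edgeR adjusted p = 1.76e-07). In each of these 3 genes the lowest 72 h library exceeded the highest 24 h library more than 10-fold. Igfbpl1, a relative of the insulin-like growth factor binding proteins, measured 1.28, 1.45 and 1.3 CPM at 24 h and 65, 101 and 87 CPM at 72 h, with a log2 fold change of 5.95 ± 0.49 (edgeR adjusted p = 1.57e-07). Elobl, an elongin B-like gene, measured 1.28, 1.9 and 1.55 CPM at 24 h and 63.7, 76.4 and 93.3 CPM at 72 h, with a log2 fold change of 5.60 ± 0.66 (edgeR adjusted p = 1.19e-05). Nxph3, which encodes a ligand of neurexins, went from 6 counts in the 24 h libraries to 192 in the 72 h libraries, with a log2 fold change of 4.80 ± 0.47 (edgeR adjusted p = 9.76e-07).

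**Figure D1:**
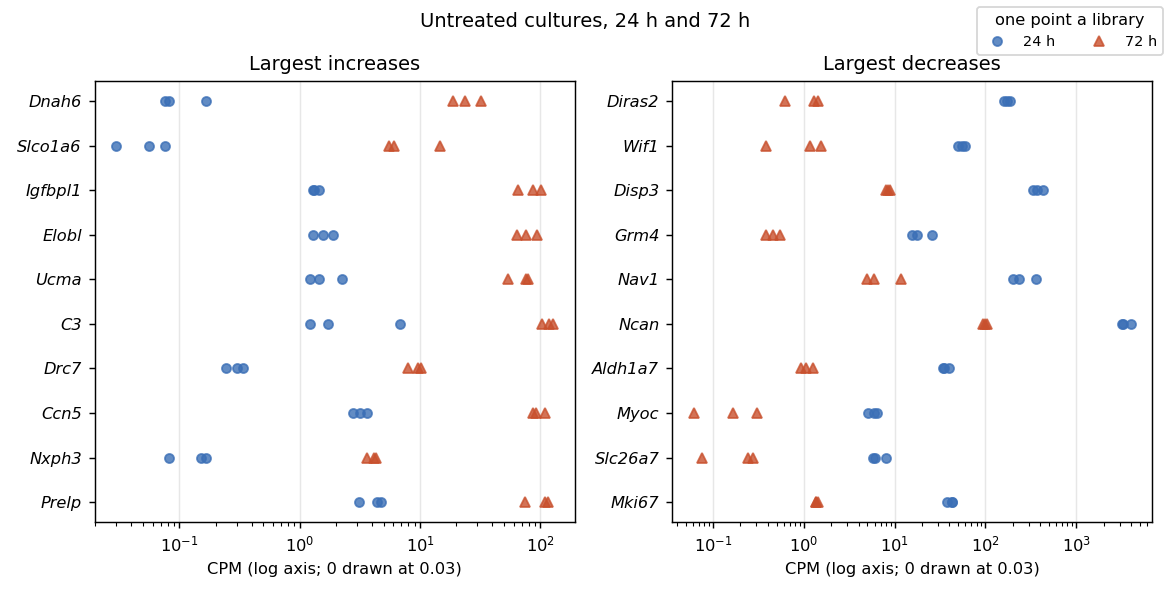
CPM (log axis) of the 10 genes with the largest fold increase and the 10 with the largest fold decrease between 24 h and 72 h, among called genes that averaged 2 CPM or more, had times that did not overlap and no predicted-gene or clone symbol, with 1 point for each of the 3 libraries at 24 h (circles) and at 72 h (triangles). For every gene the 2 groups of points are separate; Dnah6 lies between 0.0756 and 0.168 CPM at 24 h and between 18.8 and 31.8 CPM at 72 h.

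In the same ranking, the largest decrease was in Diras2, a Ras-like small GTPase of the nervous system. It measured 171, 187 and 161 CPM at 24 h and 1.29, 0.614 and 1.43 CPM at 72 h, with a log2 fold change of -7.27 ± 0.64 (edgeR adjusted p = 3.16e-07). Ncan, which encodes the brain proteoglycan neurocan, measured 3267, 3159 and 3966 CPM at 24 h and 99.7, 105 and 95.1 CPM at 72 h, with a log2 fold change of -5.12 ± 0.38 (edgeR adjusted p = 4.06e-08), and no other gene that fell lost as many CPM. Diras2 and Ncan were abundant in all 24 h libraries and low in all 72 h libraries. Disp3, a membrane protein with a sterol-sensing domain, measured 334, 367 and 429.9 CPM at 24 h and 8.02, 8.83 and 8.36 CPM at 72 h, with a log2 fold change of -5.48 ± 0.48 (edgeR adjusted p = 2.74e-07). Nav1, a microtubule-binding protein of growing processes, fell from 263 ± 82.2 to 7.61 ± 3.73 CPM (log2 fold change -5.13 ± 0.55, edgeR adjusted p = 2.66e-06). Wif1, a secreted inhibitor of WNT ligands, fell from 54.9 ± 4.82 to 1.02 ± 0.589 CPM (log2 fold change -5.69 ± 0.65, edgeR adjusted p = 4.31e-06). In each of these 3 genes the 24 h libraries differed among themselves by less than 2-fold. Grm4, a metabotropic glutamate receptor, fell from 19.7 ± 5.22 to 0.464 ± 0.0839 CPM (log2 fold change -5.39 ± 0.41, edgeR adjusted p = 5.36e-08). Aldh1a7, an aldehyde dehydrogenase, fell from 36.3 ± 3.15 to 1.08 ± 0.174 CPM (log2 fold change -5.05 ± 0.48, edgeR adjusted p = 6.85e-07). Myoc, the secreted glycoprotein myocilin, fell from 5.78 ± 0.654 to 0.176 ± 0.121 CPM (log2 fold change -5.04 ± 0.51, edgeR adjusted p = 2.69e-06), and Slc26a7, an anion transporter, fell from 6.6 ± 1.17 to 0.199 ± 0.108 CPM (log2 fold change -4.94 ± 0.72, edgeR adjusted p = 6.02e-05). The proliferation gene Mki67 completes the 10 and is described with the cell cycle.

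Measured by the change in CPM rather than by fold, the 5 largest increases among genes that rose were in Rn7sk, Apoe, Cpe, Arhgap5 and Gpm6b. Rn7sk, a small nuclear RNA that restrains transcription elongation, measured 13632, 17940.1 and 14439 CPM at 24 h and 17347, 26389 and 25101 CPM at 72 h, with a log2 fold change of 0.58 ± 0.18 (edgeR adjusted p = 0.0254); the call was lost without 24 h replicate 1 or 3 or 72 h replicate 2 or 3 (adjusted p from 0.077 to 0.123). Cpe, carboxypeptidase E, which trims peptide hormone precursors, measured 619, 729 and 625 CPM at 24 h and 1822, 2566 and 2428 CPM at 72 h, with a log2 fold change of 1.79 ± 0.22 (edgeR adjusted p = 1.03e-05). Gpm6b, a membrane protein of the proteolipid family, measured 2098, 2162 and 1684 CPM at 24 h and 2585, 3370.4 and 3609 CPM at 72 h, with a log2 fold change of 0.69 ± 0.15 (edgeR adjusted p = 0.00213), and Arhgap5, a GTPase-activating protein, rose from 648 ± 73 to 1979 ± 188 CPM (log2 fold change 1.61 ± 0.23, edgeR adjusted p = 3.94e-05). In Cpe and Gpm6b every 72 h library lay above every 24 h library, and Apoe is described with the astrocyte markers.

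After Ncan, the largest losses among genes that fell were in Ckb, Ptprz1, Fabp7 and the cadherin gene Fat1. Ckb, the brain creatine kinase, measured 4295, 5986 and 4630.5 CPM at 24 h and 1494, 2012 and 2094 CPM at 72 h, with a log2 fold change of -1.41 ± 0.30 (edgeR adjusted p = 0.00198). Ptprz1, a receptor phosphatase of radial glia and precursors, fell from 2145 ± 222 to 1272 ± 143 CPM (log2 fold change -0.75 ± 0.14, edgeR adjusted p = 0.000466).

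Gene lists gave a view of which programmes moved. Of the 28 lists, mitosis and sterol synthesis had the largest shares of falling members and the motile cilium had the largest share of rising members. Since the lists were chosen with earlier results of these data known, their counts are descriptions to be read against the 12.2% and 12.6% of all tested genes.

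**Figure D2:**
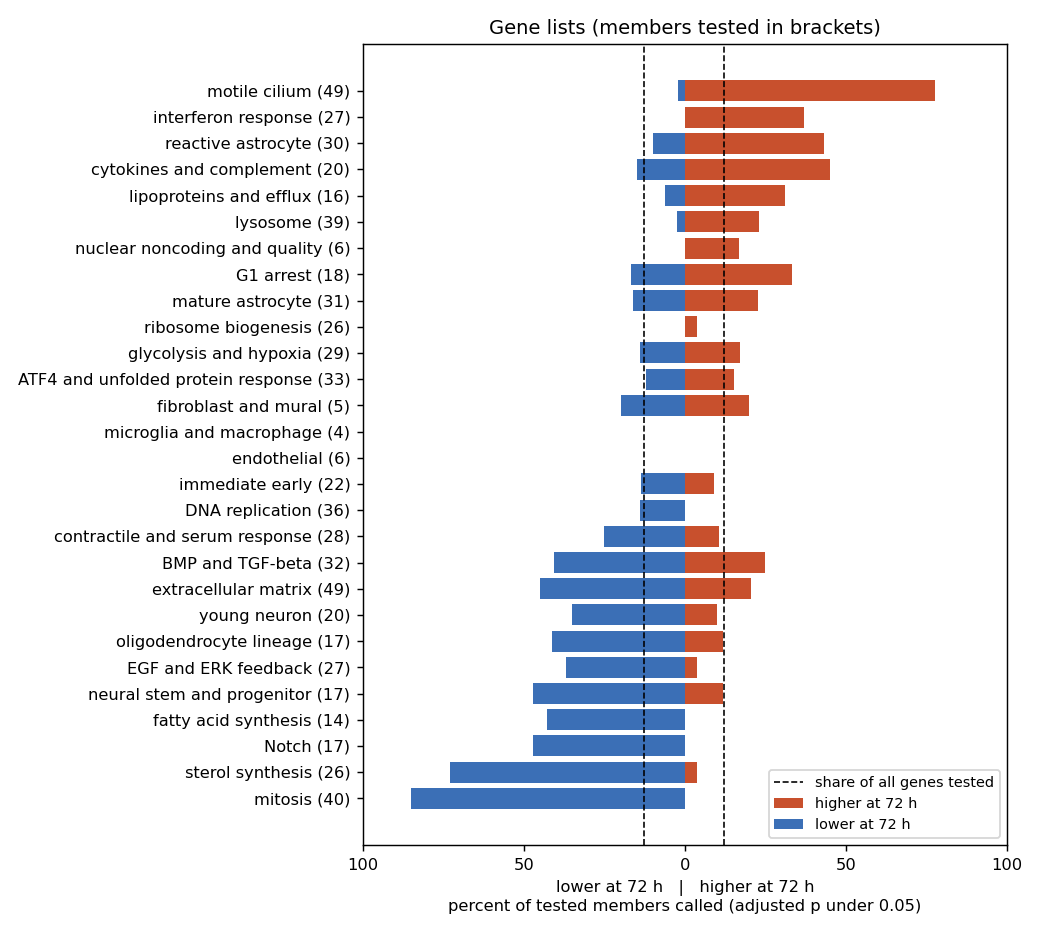
Percent of the tested members of each of 28 gene lists that were called higher (right) or lower (left) at 72 h, with the number of members tested in brackets and dashed lines at the share of all 20067 genes (12.2% higher, 12.6% lower). The mitosis list has 85.0% of its members lower and the motile cilium list has 77.6% of its members higher.

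Astrocyte markers moved in both directions. Of 31 tested, 7 rose, 5 fell and 19 were not called, with a median log2 fold change of 0.02 beside -0.01 over all genes tested. The 5 that fell became 1 without 72 h replicate 1, 2 without 24 h replicate 2 or 72 h replicate 3, and 3 without 24 h replicate 3. Gfap, the intermediate filament protein by which astrocytes are usually recognised, measured 864, 883 and 949 CPM at 24 h and 1855, 3172 and 2270.0 CPM at 72 h. All 72 h libraries were above all 24 h libraries, but the log2 fold change of 1.44 ± 0.55 did not pass (edgeR adjusted p = 0.0631), and among the alternatives it passed where the 6 libraries were fitted alone (adjusted p = 0.000176). The connexin gene Gja1 measured 213, 181 and 197 CPM at 24 h and 445, 604 and 569 CPM at 72 h (1.45 ± 0.55, edgeR adjusted p = 0.0602), and the water channel gene Aqp4 measured 451, 428 and 385 CPM at 24 h and 665, 996 and 954 CPM at 72 h (1.05 ± 0.38, edgeR adjusted p = 0.0525). Both genes passed in the same fit of 6 libraries (adjusted p = 2.1e-05 for Gja1 and 0.000485 for Aqp4) and under the filter of 5 counts in total (0.0492 and 0.0436), and Aqp4 also passed without 72 h replicate 1 (0.0423).

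Of the secreted products, Apoe, the main lipid carrier of the brain, measured 571, 572 and 551 CPM at 24 h and 1814, 3010.1 and 2443 CPM at 72 h, with a log2 fold change of 2.10 ± 0.46 (edgeR adjusted p = 0.00232). Clu, the chaperone clusterin, measured 68.7, 80.8 and 71.5 CPM at 24 h and 655, 859 and 895 CPM at 72 h, with a log2 fold change of 3.45 ± 0.20 (edgeR adjusted p = 9.18e-09). Gpld1, a phospholipase that cleaves lipid anchors, rose from 13.3 ± 1.02 to 67.6 ± 8.36 CPM (log2 fold change 2.35 ± 0.19, edgeR adjusted p = 1.29e-07). The urea transporter gene Slc14a1 measured 2.12, 2.12 and 2.28 CPM at 24 h and 12.2, 16.8 and 13.8 CPM at 72 h, with a log2 fold change of 2.71 ± 0.39 (edgeR adjusted p = 5.17e-05). These 4 genes rose with no overlap between the times.

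Aldh1l1 and Aldoc were among the astrocyte markers that fell. Aldh1l1, a folate enzyme used as a pan-astrocyte marker, measured 21.9, 26.4 and 22 CPM at 24 h and 6.74, 9.26 and 8.42 CPM at 72 h, with a log2 fold change of -1.52 ± 0.30 (edgeR adjusted p = 0.000956). Aldoc, the brain aldolase, measured 880.0, 997 and 796 CPM at 24 h and 444, 621 and 679 CPM at 72 h, with a log2 fold change of -0.62 ± 0.17 (edgeR adjusted p = 0.0131); the call was lost without 24 h replicate 2 or 72 h replicate 1 (adjusted p from 0.0636 to 0.0661).

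The glutamate transporter genes Slc1a2 and Slc1a3 and the glutamine synthetase gene Glul were not called, with log2 fold changes of -0.19 ± 0.22, -0.31 ± 0.17 and -0.29 ± 0.14, and S100b was not called either (0.19 ± 0.18).

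Genes of neural stem cells and progenitors fell more often than they rose. Of 17 tested, 8 fell and 2 rose, with a median of -0.56. Fabp7, the fatty acid binding protein of radial glia, measured 1132, 1369 and 1056 CPM at 24 h and 265, 321 and 446 CPM at 72 h, with a log2 fold change of -1.79 ± 0.33 (edgeR adjusted p = 0.000498). Tnc, the matrix glycoprotein tenascin C of the stem cell niche, measured 612, 665 and 605 CPM at 24 h and 93.2, 71.6 and 107 CPM at 72 h, with a log2 fold change of -2.79 ± 0.45 (edgeR adjusted p = 0.000175). Hmga2, a chromatin protein of fetal stem cells, fell from 13.6 ± 2.79 to 0.91 ± 0.163 CPM (log2 fold change -3.89 ± 0.48, edgeR adjusted p = 1.07e-05). Hes5, the transcriptional repressor driven by Notch, measured 6.27, 8.72 and 8.07 CPM at 24 h and 0.151, 0.614 and 0.33 CPM at 72 h, with a log2 fold change of -4.33 ± 0.71 (edgeR adjusted p = 0.000185). For these 4 genes the decrease was larger than 3-fold and the groups did not overlap.

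Not every progenitor marker followed. Nes, nestin, with 753, 796 and 695 CPM at 24 h and 713, 824 and 1020.3 CPM at 72 h, and Vim, vimentin, with 2538, 3110.2 and 2883 CPM at 24 h and 2653, 3095 and 3611 CPM at 72 h, were not called, with log2 fold changes of 0.19 ± 0.28 and 0.13 ± 0.15. Cd44, a hyaluronan receptor, measured 161, 152 and 176 CPM at 24 h and 148, 167 and 149 CPM at 72 h and was not called (-0.08 ± 0.34). Sox2, a transcription factor of neural stem cells, rose slightly with 219, 214 and 193 CPM at 24 h and 251, 344 and 343 CPM at 72 h, with a log2 fold change of 0.58 ± 0.17 (edgeR adjusted p = 0.0151); the call was lost without 24 h replicate 3 or 72 h replicate 2 or 3 (adjusted p from 0.06 to 0.074). The summed level of the progenitor list was 8480 to 8920 CPM at 24 h and 6250 to 7430 CPM at 72 h. In bulk RNA, a lower share of cells of a type and less RNA per cell cannot be told apart.

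Of 9 tested precursor genes of the oligodendrocyte lineage 4 fell and none rose. Olig2, a transcription factor of precursors, measured 82.7, 86 and 97.2 CPM at 24 h and 21, 21.2 and 18.4 CPM at 72 h, with a log2 fold change of -2.13 ± 0.20 (edgeR adjusted p = 5.34e-07). Its relative Olig1 fell from 261 ± 32 to 49.9 ± 6.5 CPM (log2 fold change -2.38 ± 0.37, edgeR adjusted p = 0.000124), and Cspg4, the NG2 proteoglycan, measured 36.5, 35.4 and 43 CPM at 24 h and 11.1, 10.2 and 7.04 CPM at 72 h, with a log2 fold change of -2.02 ± 0.41 (edgeR adjusted p = 0.00131). In all 3 genes the groups were far apart. Tnr, tenascin R, fell from 24.4 ± 2.67 to 1.38 ± 0.424 CPM (log2 fold change -4.14 ± 0.52, edgeR adjusted p = 1.32e-05). Of 16 genes of myelinating cells 8 were tested, among which 3 fell and 2 rose, and the myelin genes Mag, Mog and Mobp had at most 2 counts in any of the 6 libraries. Cnp, an enzyme also found outside myelin, rose from 108 ± 4.94 to 451 ± 77.1 CPM (log2 fold change 2.06 ± 0.21, edgeR adjusted p = 1.25e-06).

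Among 20 tested genes of young neurons, 7 fell and 2 rose. Tubb3, neuronal beta-tubulin, measured 30.6, 41.2 and 31.9 CPM at 24 h and 6.51, 6.69 and 8.25 CPM at 72 h, with a log2 fold change of -2.27 ± 0.40 (edgeR adjusted p = 0.000405). Neurog2, a proneural transcription factor, fell from 2.03 ± 0.287 to 0.418 ± 0.063 CPM (log2 fold change -2.25 ± 0.51, edgeR adjusted p = 0.00309). Dcx, a microtubule protein of migrating neurons, measured 4.01, 2.85 and 4.32 CPM at 24 h and 0.378, 0.798 and 0.715 CPM at 72 h, with a log2 fold change of -2.51 ± 0.73 (edgeR adjusted p = 0.0179); the call was lost without 24 h replicate 3 or 72 h replicate 1 or 3 (adjusted p from 0.0529 to 0.057).

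The most uniform decrease was in mitosis. Of 40 genes for mitotic kinases, cyclins, the anaphase machinery, the spindle and the kinetochore, 34 fell and none rose, with a median of -1.57, and 31 to 32 fell with any 1 library left out. Mki67, whose protein Ki-67 coats mitotic chromosomes, measured 42.7, 37.6 and 42.9 CPM at 24 h and 1.44, 1.35 and 1.38 CPM at 72 h, with a log2 fold change of -4.88 ± 0.52 (edgeR adjusted p = 2.36e-06). Top2a, the topoisomerase that separates sister chromatids, measured 36.7, 40.1 and 35.2 CPM at 24 h and 4.77, 4.54 and 7.21 CPM at 72 h, with a log2 fold change of -2.75 ± 0.35 (edgeR adjusted p = 1.29e-05). Ccnb1, cyclin B1, measured 6.05, 8.05 and 5.95 CPM at 24 h and 0.378, 0.368 and 1.21 CPM at 72 h, with a log2 fold change of -3.28 ± 0.46 (edgeR adjusted p = 3.97e-05), or -4.15 without 72 h replicate 3, and its partner kinase gene Cdk1 measured 11.3, 12.9 and 10.6 CPM at 24 h and 3.33, 3.87 and 4.95 CPM at 72 h, with a log2 fold change of -1.51 ± 0.29 (edgeR adjusted p = 0.000695). For all 4 genes the 72 h libraries lay below every 24 h library. Bub1, a checkpoint kinase, had 137 counts at 24 h and 6 at 72 h, a ratio of scaled counts of 25.1 (95% counting interval 11.2 to 69.6), and Ube2c, the ubiquitin-conjugating enzyme of anaphase, had 88 and 4 counts, a ratio of 24.2 (9.11 to 90.7). The 6 members not called were Mad2l1, Tpx2, Nusap1, Anln, Smc2 and Smc4.

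The summed level of the 40 genes was 4540 to 6820 CPM in NSPs, 451 to 486 CPM at 24 h, 217 to 268 CPM at 72 h and 185 to 240 CPM at 1 week.

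DNA replication genes, which act earlier in the cycle, had 5 of 36 lower (13.9%, near the 12.6% of all genes) and none higher, with a median of -0.29. The 5 became 2 without 24 h replicate 2 and 3 without 72 h replicate 1 or 2. Called or not, 16 of the 36 had all 72 h libraries below all 24 h libraries and 1 had them above. For all tested genes these shares were 20.3% and 21.0%. Uhrf1, which maintains DNA methylation behind the fork, fell from 7.52 ± 0.715 to 1.05 ± 0.118 CPM (log2 fold change -2.84 ± 0.47, edgeR adjusted p = 0.000214). Cdc6, a licensing factor, fell from 2.34 ± 0.0932 to 0.62 ± 0.119 CPM (log2 fold change -1.92 ± 0.53, edgeR adjusted p = 0.0114). The helicase gene Mcm2, with 13.6, 16.9 and 16.1 CPM at 24 h and 10.7, 9.57 and 12.2 CPM at 72 h, and the clamp gene Pcna, with 39.9, 47.6 and 37.3 CPM at 24 h and 35, 46.6 and 58 CPM at 72 h, were not called. Mcm2 passed where the 6 libraries were fitted alone (edgeR adjusted p = 0.0232).

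Among 18 genes of cell cycle exit and the G1 phase, 6 rose and 3 fell, and 3 rose without 24 h replicate 3. Ccnd2, cyclin D2, measured 677, 676 and 904 CPM at 24 h and 109, 76.1 and 97.6 CPM at 72 h, with a log2 fold change of -3.00 ± 0.52 (edgeR adjusted p = 0.000347). Gas1, a growth arrest gene at the membrane, measured 34.9, 37.1 and 37.4 CPM at 24 h and 95.7, 118 and 116 CPM at 72 h, with a log2 fold change of 1.59 ± 0.18 (edgeR adjusted p = 3.75e-06), and Ccnd3, cyclin D3, rose from 28.5 ± 2.8 to 44.5 ± 1.99 CPM (log2 fold change 0.64 ± 0.12, edgeR adjusted p = 0.00056). Cyclins D2 and D3 thus moved in opposite directions. The CDK inhibitor gene Cdkn1a was not called (0.41 ± 0.25).

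Genes of the mitosis list are known to share a promoter element, the cell cycle genes homology region (CHR), and often a CCAAT box, so the bases before their transcription starts were searched. The promoters were 300-base windows from RefSeq on GRCm38.p6, from 250 bases before to 50 after the start, and were found for 32 of the 40 genes and for 11888 of all tested genes. The CHR, spelled TTTGAA and read on both strands, was present in 23 of 32 (71.9%), against 14.5% of all tested genes and 10.3% of 29 DNA replication genes. The letters CCAAT, on either strand, were present in 24 of 32 (75.0%), against 42.4% of all tested genes. A match is a run of letters and not a measured binding site. Windows of 60 bases before the start of 6 of the fallen genes are shown because each holds a CHR, of which the one nearest the start is set in capitals; lines are 5′ to 3′ on the strand of the gene.
Mki67 (chr7:135716445-135716504, minus strand): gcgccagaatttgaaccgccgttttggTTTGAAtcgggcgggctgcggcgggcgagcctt
Top2a (chr11:99024190-99024249, minus strand): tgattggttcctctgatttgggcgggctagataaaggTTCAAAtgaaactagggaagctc
Cdk1 (chr10:69352913-69352972, minus strand): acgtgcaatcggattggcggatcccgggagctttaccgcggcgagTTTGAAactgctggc
Ube2c (chr2:164769869-164769928, plus strand): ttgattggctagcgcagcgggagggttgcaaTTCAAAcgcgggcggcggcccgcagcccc
Cdc20 (chr4:118437344-118437403, minus strand): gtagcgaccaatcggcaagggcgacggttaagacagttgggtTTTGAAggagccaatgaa
Prc1 (chr7:80294416-80294475, plus strand): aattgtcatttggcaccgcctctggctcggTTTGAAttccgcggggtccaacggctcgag

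In Top2a, Cdk1, Ube2c, Cdc20 and Prc1 the capitals begin 23, 15, 29, 18 and 30 bases before the start, and in Mki67 98 bases before it, where a second CHR, left in lower case, begins 116 bases before the start. Prc1, a protein that bundles the central spindle, fell by 2.06 ± 0.25 on the log2 scale, and Cdc20, an activator of the anaphase-promoting complex, fell by 1.75 ± 0.28 on the log2 scale (edgeR adjusted p = 1.03e-05 and 0.000133).

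Transcripts of most enzymes of cholesterol synthesis were lower at 72 h. Of 20 enzymes from acetyl-CoA to cholesterol, 16 fell and 1 rose, with a median of -1.32, and of 6 genes of sterol uptake and control 3 fell. With 1 library left out, 14 to 18 of the 26 genes fell in place of 19. Idi1, which makes the isoprene unit that starts chain growth, measured 28.9, 39.1 and 29.7 CPM at 24 h and 7.87, 7.67 and 11.1 CPM at 72 h, with a log2 fold change of -1.87 ± 0.46 (edgeR adjusted p = 0.00542). Fdps, which joins the units to farnesyl diphosphate, measured 22.1, 29.8 and 23.3 CPM at 24 h and 4.92, 5.52 and 7.92 CPM at 72 h, with a log2 fold change of -2.03 ± 0.41 (edgeR adjusted p = 0.00121). For both enzymes the lowest 24 h library was more than 2-fold above the highest 72 h library. The later enzymes Lss (-1.49 ± 0.35), Cyp51 (-1.48 ± 0.38), Nsdhl (-1.62 ± 0.30) and Dhcr7 (-1.59 ± 0.26) fell by a like amount.

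The enzymes that did not fall were Sqle, Ebp and Sc5d, which were not called, and Hsd17b7, a reductase of the late pathway, which measured 65.7, 66.4 and 58.2 CPM at 24 h and 132, 139 and 159 CPM at 72 h, with a log2 fold change of 1.17 ± 0.29 (edgeR adjusted p = 0.00502). Sqle, squalene epoxidase, measured 433, 496 and 429.6 CPM at 24 h and 310.0, 328 and 432 CPM at 72 h, and its log2 fold change was -0.34 ± 0.45. Srebf2, the transcription factor that drives the pathway, fell by 0.96 ± 0.22 on the log2 scale (edgeR adjusted p = 0.00354).

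**Figure D3:**
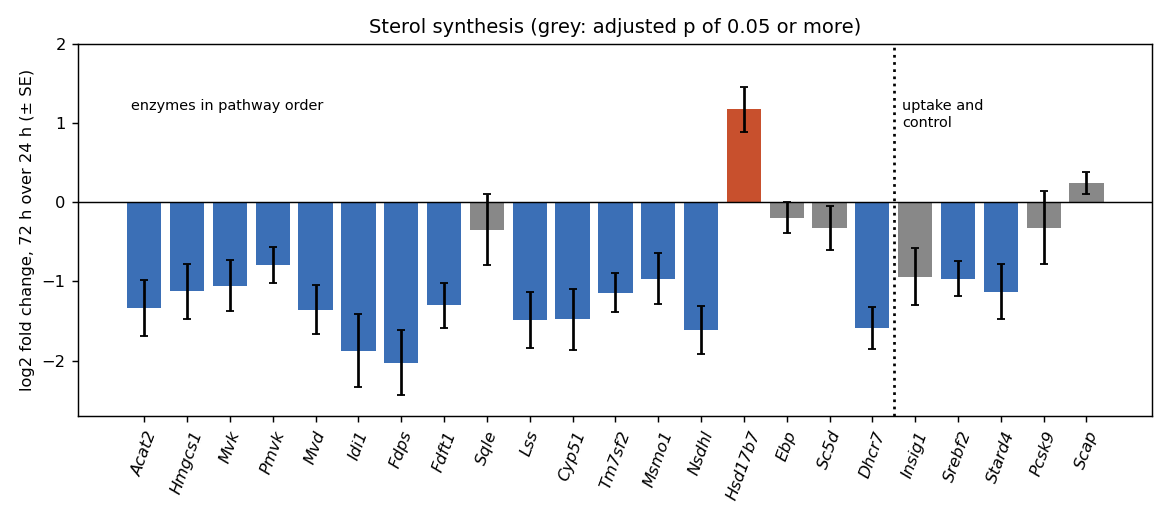
Log2 fold change (72 h over 24 h, error bars 1 SE from edgeR, 3 libraries in each group) of 18 of the 20 sterol synthesis enzymes in pathway order and of 5 of the 6 genes of sterol uptake and control; grey bars have an adjusted p of 0.05 or more. From Acat2 at -1.34 to Dhcr7 at -1.59 the bars lie below 0, except Hsd17b7 at 1.17, and among the genes of uptake and control Scap lies at 0.25.

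The promoters of the sterol genes were searched in the same way. A 10-base spelling of the sterol response element, the site of the SREBP factors, was present in 0 of the 18 members with a promoter window and in 0.0336% of all tested genes, which says only that these letters are not in these windows. CCAAT on either strand was present in 16 of the 18 (88.9%), against 42.4% of all tested genes. The following windows of 60 bases of 4 fallen enzymes have the CCAAT box, or ATTGG on the other strand, in capitals.
Idi1 (chr13:8885533-8885592, plus strand): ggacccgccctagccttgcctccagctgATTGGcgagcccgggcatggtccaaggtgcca
Lss (chr10:76531515-76531574, plus strand): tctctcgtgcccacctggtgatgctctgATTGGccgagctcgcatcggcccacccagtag
Cyp51 (chr5:4104698-4104757, minus strand): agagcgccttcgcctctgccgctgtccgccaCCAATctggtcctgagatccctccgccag
Dhcr7 (chr7:143830137-143830196, plus strand): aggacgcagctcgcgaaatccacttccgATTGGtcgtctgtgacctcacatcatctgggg

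Fatty acid synthesis moved less, as 6 of 14 genes fell and none rose, with a median of -0.44. Elovl6, an elongase, fell from 59.7 ± 5.08 to 19.4 ± 1.25 CPM (log2 fold change -1.62 ± 0.22, edgeR adjusted p = 2.68e-05), and Scd1, a desaturase, fell from 312 ± 14.9 to 181 ± 27.5 CPM (log2 fold change -0.79 ± 0.17, edgeR adjusted p = 0.00229). Acss2, which activates acetate, fell by 0.67 ± 0.16 on the log2 scale (edgeR adjusted p = 0.00572). The desaturase gene Scd2, with 2416, 2417 and 2496 CPM at 24 h and 2181, 2295 and 2550.1 CPM at 72 h, was not called (-0.06 ± 0.11).

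Of 16 genes of lipoproteins and efflux 5 rose, 1 fell and 10 were not called. Beside Apoe and Clu, Pltp, a phospholipid transfer protein, measured 19.1, 18.2 and 18.3 CPM at 24 h and 104, 134 and 121 CPM at 72 h, with a log2 fold change of 2.69 ± 0.18 (edgeR adjusted p = 2.06e-08). The cholesterol exporter gene Abca1 measured 584, 520.0 and 566 CPM at 24 h and 1167, 1228 and 1051 CPM at 72 h, and although the times did not overlap its log2 fold change of 1.05 ± 0.40 was not called (edgeR adjusted p = 0.0659; 7.37e-05 in a fit of the 6 libraries alone). The receptor gene Lrp8 fell by 0.77 ± 0.15 on the log2 scale (edgeR adjusted p = 0.00115).

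Lysosome genes leaned upward, with 9 of 39 higher and 1 lower. Psap, the precursor of the saposins, measured 1111, 1297 and 1137 CPM at 24 h and 1709.5, 2305 and 2449.6 CPM at 72 h, with a log2 fold change of 0.87 ± 0.15 (edgeR adjusted p = 0.000329). Hexa, a subunit of hexosaminidase, measured 67.6, 74.4 and 59.2 CPM at 24 h and 101, 140.2 and 146 CPM at 72 h, with a log2 fold change of 0.95 ± 0.19 (edgeR adjusted p = 0.00129), and Lamp2, a lysosomal membrane protein, rose from 492 ± 25.5 to 740.1 ± 89.3 CPM (log2 fold change 0.59 ± 0.13, edgeR adjusted p = 0.00244). Every 72 h library lay above every 24 h library in these genes. Npc1, which exports cholesterol from the lysosome, was the member that fell, with 177, 175 and 173 CPM at 24 h and 104, 110.3 and 109.8 CPM at 72 h, with a log2 fold change of -0.69 ± 0.12 (edgeR adjusted p = 0.00029), and Cln3 rose by 1.19 ± 0.31 on the log2 scale (edgeR adjusted p = 0.00831). Ctsd, a cathepsin, was not called (0.45 ± 0.17).

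Genes of the motile cilium rose across its parts. Of 49 members tested, 38 rose and 1 fell, with a median of 1.71, and 34 to 38 rose with any 1 library left out. Another 7 of the 56 members were not tested, with at most 6 counts in any library of the 2 times, among them Spag16, Spag17 and Armc4. By role, 11 of 15 dynein arm genes, 9 of 11 genes for docking and assembly of the arms, and 15 of 17 genes for radial spokes, the central pair and tektins rose. Foxj1, the transcription factor of motile ciliogenesis, measured 79.4, 93.4 and 87.7 CPM at 24 h and 214, 303 and 296 CPM at 72 h, with a log2 fold change of 1.64 ± 0.21 (edgeR adjusted p = 1.3e-05). Enkur, a protein of the inner axoneme, measured 2.72, 3.86 and 3.67 CPM at 24 h and 42.4, 50.0 and 43.9 CPM at 72 h, with a log2 fold change of 3.72 ± 0.27 (edgeR adjusted p = 4.06e-08). Dnah5, an outer arm heavy chain, rose from 7.16 ± 1.26 to 35 ± 5.93 CPM (log2 fold change 2.29 ± 0.41, edgeR adjusted p = 0.000404), and Spag6l, a central pair protein, measured 0.756, 0.503 and 0.489 CPM at 24 h and 7.34, 7.06 and 6.6 CPM at 72 h, with a log2 fold change of 3.58 ± 0.50 (edgeR adjusted p = 3.82e-05). The groups did not overlap for any of these 4 genes.

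The early regulators differed. Myb, which acts at the onset of multiciliated differentiation, was the member that fell, with 3.55, 3.41 and 3.34 CPM at 24 h and 0.53, 0.245 and 0.44 CPM at 72 h, with a log2 fold change of -3.08 ± 0.50 (edgeR adjusted p = 0.000162). Gmnc, a geminin relative that starts this programme, was near the detection limit and rose by 3.74 ± 0.72 on the log2 scale from 0.0775 ± 0.0756 CPM to 1.03 ± 0.228 CPM (4.65 without 24 h replicate 1 and 3.06 without 24 h replicate 2), whereas Mcidas, its partner, had at most 2 counts in any library. Rfx2 and Rfx3 were not called (-0.38 ± 0.26 and 0.17 ± 0.17).

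Several cilium genes carry an X-box in their promoters, of which GTTGCCAT is 1 arm. These 8 letters, on either strand, were found in 3 of the 42 members with a promoter window (7.14%) and in 1.48% of all tested genes. The windows of Cfap44 and Tekt1, which were both called higher, are shown with the match in capitals. Cfap44 had a log2 fold change of 2.52 ± 0.33. Tekt1 measured 0.227, 0 and 0.0815 CPM at 24 h and 0.53, 1.29 and 1.27 CPM at 72 h, with a log2 fold change of 3.39 ± 0.81 (edgeR adjusted p = 0.00451), and the value was 4.68 without 24 h replicate 1 and 2.70 without 24 h replicate 2.
Cfap44 (chr16:44394739-44394798, plus strand): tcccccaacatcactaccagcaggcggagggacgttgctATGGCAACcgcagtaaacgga
Tekt1 (chr11:72361883-72361942, minus strand): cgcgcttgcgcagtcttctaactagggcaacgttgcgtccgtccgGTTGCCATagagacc

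Complement genes rose at 72 h in cultures whose microglial markers stayed near the detection limit. Of 11 complement genes tested, 7 rose and 1 fell, with a median of 1.59. C4b, which continues the cascade after C1, measured 34.9, 30.5 and 32.5 CPM at 24 h and 452, 641 and 402 CPM at 72 h, with a log2 fold change of 3.93 ± 0.44 (edgeR adjusted p = 4.1e-06). C1s1, a C1 protease, rose from 1.37 ± 0.515 to 12.1 ± 2.74 CPM (log2 fold change 3.16 ± 0.37, edgeR adjusted p = 5.81e-06). Serping1, the inhibitor of C1, rose from 2.06 ± 0.162 to 10.6 ± 2.36 CPM (log2 fold change 2.36 ± 0.30, edgeR adjusted p = 1.29e-05). Together with C3 these genes span proteases, substrates and an inhibitor, and no library of one time reached the other time in any of the 4. Masp1, a protease of the lectin pathway, was the member that fell, with 43.1, 46.1 and 49.1 CPM at 24 h and 15.7, 12.6 and 15.4 CPM at 72 h, with a log2 fold change of -1.66 ± 0.23 (edgeR adjusted p = 3.68e-05). C4b has a close paralog, C4a, so that its reads may be split between the 2 genes.

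Chemokine and cytokine genes were mostly low. Of 18, 9 were tested, 2 rose and 2 fell. Ccl2, a chemokine for monocytes, measured 0.151, 0.112 and 0.489 CPM at 24 h and 0.832, 1.23 and 2.04 CPM at 72 h, with a log2 fold change of 2.54 ± 0.50 (edgeR adjusted p = 0.00101), or 3.37 without 24 h replicate 3. Cx3cl1, the membrane-bound chemokine fractalkine, measured 116, 128 and 133 CPM at 24 h and 44.4, 50.1 and 52.5 CPM at 72 h, with a log2 fold change of -1.36 ± 0.26 (edgeR adjusted p = 0.000677).

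Of 30 tested genes of reactive astrocytes, 13 rose and 3 fell, with a median of 1.43. Serpina3n, a protease inhibitor, measured 1.21, 1.73 and 1.47 CPM at 24 h and 11.3, 13.3 and 10.2 CPM at 72 h, with a log2 fold change of 2.96 ± 0.57 (edgeR adjusted p = 0.000762). Emp1, a membrane protein, rose from 4.4 ± 0.516 to 24.1 ± 3.16 CPM (log2 fold change 2.45 ± 0.24, edgeR adjusted p = 1.19e-06), and Tm4sf1, a tetraspanin-like protein, measured 38.2, 46.5 and 36.7 CPM at 24 h and 189, 253 and 264 CPM at 72 h, with a log2 fold change of 2.54 ± 0.25 (edgeR adjusted p = 1.06e-06). Aspg, an asparaginase, rose from 1.12 ± 0.244 to 8.57 ± 3.28 CPM (log2 fold change 2.94 ± 0.59, edgeR adjusted p = 0.00115). Lcn2, lipocalin 2, and Cxcl10, an interferon-induced chemokine, were called higher, but both had 0 counts in 24 h replicates 1 and 2. Lcn2 measured 0, 0 and 0.326 CPM at 24 h and 1.97, 1.9 and 1.71 CPM at 72 h, with a log2 fold change of 4.20 ± 0.92 (edgeR adjusted p = 0.00287), and the value was 3.51 without 24 h replicate 2 and 7.96 without 24 h replicate 3. Cxcl10 measured 0, 0 and 0.326 CPM at 24 h and 2.04, 2.45 and 2.92 CPM at 72 h, with a log2 fold change of 4.63 ± 0.68 (edgeR adjusted p = 6.42e-05), with 3.93 and 8.38 in the same fits. Without 24 h replicate 3 no counts are left at 24 h, so that these fitted values depend on the prior count. The genes of the list labelled pan-reactive rose in 7 of 13 cases, those labelled A1 in 4 of 8 and those labelled A2 in 2 of 9. B3gnt5 fell by 1.19 ± 0.19 on the log2 scale (edgeR adjusted p = 0.000138). Timp1 (-2.28 ± 0.67) and Fkbp5 (-0.81 ± 0.28) also fell, and each lost its call in some fits with 1 library left out.

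Interferon-response genes rose in 10 of 27 cases and fell in none, with a median of 0.66. Ifit3, an antiviral effector, measured 6.35, 6.32 and 7.09 CPM at 24 h and 17.9, 23.1 and 23.4 CPM at 72 h, with a log2 fold change of 1.71 ± 0.28 (edgeR adjusted p = 0.000194). H2-K1, a classical MHC class I chain, measured 7.18, 5.65 and 4.73 CPM at 24 h and 12.9, 18.3 and 20.4 CPM at 72 h, with a log2 fold change of 1.56 ± 0.35 (edgeR adjusted p = 0.0031), and its neighbour H2-D1 rose from 5.03 ± 1.06 to 14.9 ± 2.72 CPM (log2 fold change 1.58 ± 0.26, edgeR adjusted p = 0.000185). Their partner B2m measured 41, 51.3 and 34.2 CPM at 24 h and 52.1, 65.2 and 83.3 CPM at 72 h, with a log2 fold change of 0.66 ± 0.17 (edgeR adjusted p = 0.00783); the call was lost without 72 h replicate 3 (adjusted p = 0.0681). Isg15, with at most 0.727 CPM, was not called. Ifit3 and H2-K1 each have close copies, and how reads that fit several genes were handled is not given in the sources used here.

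In BMP and TGF-beta signalling, 7 of 16 ligands and receptors rose, 3 fell and 6 were not called. Of 16 targets and inhibitors, 1 rose, 10 fell and 5 were not called. Bmp6, a ligand, measured 4.61, 4.75 and 4.4 CPM at 24 h and 16.8, 20.2 and 17.3 CPM at 72 h, with a log2 fold change of 1.98 ± 0.31 (edgeR adjusted p = 0.000124). Tgfbr3, the co-receptor betaglycan, rose from 19.7 ± 3.44 to 83.8 ± 8.69 CPM (log2 fold change 2.09 ± 0.22, edgeR adjusted p = 2.23e-06). By contrast the receptor genes Bmpr1a and Bmpr2 fell, with log2 fold changes of -1.06 ± 0.17 and -1.12 ± 0.17, and the ligand gene Tgfb3 measured 22.7, 26.5 and 23.3 CPM at 24 h and 7.72, 6.93 and 8.03 CPM at 72 h, with a log2 fold change of -1.68 ± 0.24 (edgeR adjusted p = 4.82e-05).

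Id3, a direct target that blocks neurogenic transcription factors, measured 334, 445 and 398 CPM at 24 h and 109, 148 and 171 CPM at 72 h, with a log2 fold change of -1.46 ± 0.27 (edgeR adjusted p = 0.000539), and Id1 fell from 126 ± 15.3 to 52 ± 14.1 CPM (log2 fold change -1.27 ± 0.27, edgeR adjusted p = 0.00165). Nog, noggin, which captures BMP ligands, measured 23, 25.8 and 26 CPM at 24 h and 1.97, 2.33 and 3.14 CPM at 72 h, with a log2 fold change of -3.31 ± 0.58 (edgeR adjusted p = 0.000351). Chrdl1, a chordin-like BMP antagonist, was the member that rose, with 8.31, 8.67 and 7.58 CPM at 24 h and 74.5, 93 and 99 CPM at 72 h, with a log2 fold change of 3.44 ± 0.15 (edgeR adjusted p = 8.48e-11). In CPM, Nog was above Chrdl1 in every 24 h library and below it in every 72 h library. Ltbp1, which stores latent TGF-beta in the matrix, fell from 11.5 ± 0.396 to 1.74 ± 0.179 CPM (log2 fold change -2.73 ± 0.51, edgeR adjusted p = 0.000617).

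Notch genes fell in 8 of 17 cases and rose in none, with a median of -0.99. Jag1, a ligand, measured 22.7, 19.9 and 21.7 CPM at 24 h and 2.88, 3.31 and 3.8 CPM at 72 h, with a log2 fold change of -2.68 ± 0.18 (edgeR adjusted p = 2.06e-08). The receptor genes Notch1, with 449, 429.8 and 611 CPM at 24 h and 302, 271 and 199.5 CPM at 72 h, and Notch3, with 90.3, 76 and 121 CPM at 24 h and 41.7, 32.9 and 25.5 CPM at 72 h, fell, with log2 fold changes of -0.95 ± 0.23 and -1.53 ± 0.25, and the third 24 h library was the highest for both. Of 7 targets 3 fell, Hes5 furthest, as described above. The other 4, Hes1, Nrarp, Hey1 and Hey2, were not called (-0.82 ± 0.32, -1.02 ± 0.55, 0.11 ± 0.18 and 0.19 ± 0.34).

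In the EGF and ERK list, 10 of 27 members fell and 1 rose. Of 15 feedback and target genes 8 fell and none rose. Etv5, an ETS factor induced by ERK, measured 75.8, 93.3 and 86.4 CPM at 24 h and 24.7, 20.7 and 23.9 CPM at 72 h, with a log2 fold change of -1.88 ± 0.26 (edgeR adjusted p = 3.27e-05). Etv4 measured 13.4, 18.5 and 15.2 CPM at 24 h and 2.72, 3.44 and 2.53 CPM at 72 h, with a log2 fold change of -2.44 ± 0.29 (edgeR adjusted p = 6.18e-06), and Spry4, a feedback inhibitor, fell from 11.8 ± 1.09 to 2.82 ± 0.374 CPM (log2 fold change -2.07 ± 0.34, edgeR adjusted p = 0.000189). In all 3 genes every 72 h library was below every 24 h library. Egfr itself measured 451, 396 and 432 CPM at 24 h and 412, 376 and 372 CPM at 72 h and was not called (-0.14 ± 0.13), and Dusp6, another feedback gene, was not called either (-0.32 ± 0.44). Fgf2 was the member that rose, with 6.42, 5.59 and 4.64 CPM at 24 h and 12.1, 17.2 and 12.9 CPM at 72 h, with a log2 fold change of 1.34 ± 0.24 (edgeR adjusted p = 0.000371). Time in serum and time since EGF was withdrawn are the same in this design and cannot be told apart.

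Of 49 extracellular matrix genes, 22 fell and 10 rose. The fibroblast and mural markers, whose sum was 61.3 to 68.9 CPM at 24 h and 42.4 to 51.9 CPM at 72 h, went both ways, as 1 of 5 tested rose (Prrx1, from 18.1 ± 1.57 CPM to 31.7 ± 1.79 CPM) and 1 fell (Cspg4, from 38.3 ± 4.12 CPM to 9.47 ± 2.15 CPM), and their part in the matrix changes was not tested. The decreases included Fn1, fibronectin, with 751, 626 and 989.7 CPM at 24 h and 286, 205 and 157 CPM at 72 h, with a log2 fold change of -1.87 ± 0.35 (edgeR adjusted p = 0.000573), and Bcan, brevican, with 589, 617 and 688 CPM at 24 h and 231, 317 and 262 CPM at 72 h, with a log2 fold change of -1.22 ± 0.21 (edgeR adjusted p = 0.000287). Fbln2, fibulin 2, measured 39.8, 48.5 and 40.1 CPM at 24 h and 2.35, 2.15 and 1.27 CPM at 72 h, with a log2 fold change of -4.50 ± 0.32 (edgeR adjusted p = 2.94e-08). Col6a3, a chain of collagen VI, had 147 counts at 24 h and 2 at 72 h, a ratio of scaled counts of 80.8 (95% counting interval 22.0 to 673), and the chains Col6a1 and Col6a2 fell, with log2 fold changes of -2.03 ± 0.44 and -2.60 ± 0.57. Collagen VIII moved the other way. Col8a2 measured 11.8, 13.6 and 11.9 CPM at 24 h and 139.6, 172 and 168 CPM at 72 h, with a log2 fold change of 3.68 ± 0.33 (edgeR adjusted p = 3.89e-07), and Col8a1 rose from 2.13 ± 0.211 to 14.4 ± 2.29 CPM (log2 fold change 2.75 ± 0.33, edgeR adjusted p = 8.35e-06). Col9a1 rose from 1.64 ± 0.205 to 9.36 ± 1.43 CPM (log2 fold change 2.50 ± 0.36, edgeR adjusted p = 4.72e-05). Among proteoglycans 6 of 12 fell and 2 rose, the latter being Sdc2 (1.12 ± 0.16) and Sdc4 (1.48 ± 0.17).

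Contractile genes and targets of the serum response were divided, with 7 of 28 lower and 3 higher. The 7 became 3 without 72 h replicate 2 and 4 without 24 h replicate 3 or 72 h replicate 3. Tagln2, an actin-binding protein, measured 18.1, 21.1 and 23.4 CPM at 24 h and 7.72, 8.65 and 8.09 CPM at 72 h, with a log2 fold change of -1.35 ± 0.22 (edgeR adjusted p = 0.000201), whereas Amotl2, a regulator of YAP, measured 147, 164 and 158 CPM at 24 h and 351, 344 and 369 CPM at 72 h, with a log2 fold change of 1.18 ± 0.30 (edgeR adjusted p = 0.00775), and Lmod1, an actin nucleator of smooth muscle, rose from 4.29 ± 0.647 to 13.7 ± 1.78 CPM (log2 fold change 1.67 ± 0.21, edgeR adjusted p = 1.27e-05). Acta2, smooth muscle actin, measured 401, 494 and 424 CPM at 24 h and 195, 219 and 292 CPM at 72 h and was not called (-0.90 ± 0.50, edgeR adjusted p = 0.215). The times did not overlap, and the gene passed where the 6 libraries were fitted alone (edgeR adjusted p = 0.0012).

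Immediate early genes, which respond to serum within minutes, were called in 5 of 22 cases. Of the list 9.09% rose and 13.6% fell, near the 12.2% and 12.6% of all tested genes. Myc measured 11.7, 12.7 and 15.2 CPM at 24 h and 32, 36.3 and 34.7 CPM at 72 h, with a log2 fold change of 1.38 ± 0.22 (edgeR adjusted p = 0.000127), Jun fell from 80.6 ± 7.5 to 53.8 ± 3.14 CPM (log2 fold change -0.58 ± 0.13, edgeR adjusted p = 0.00198), and the phosphatase gene Dusp1 fell from 10.9 ± 2.77 to 4.47 ± 0.794 CPM (log2 fold change -1.29 ± 0.31, edgeR adjusted p = 0.00525). Fos and Egr1 were not called (0.50 ± 0.38 and 0.74 ± 0.58).

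Among 29 genes of glycolysis and the hypoxia response, 5 rose (17.2%) and 4 fell (13.8%), near the 12.2% and 12.6% of all tested genes. Slc2a1, the glucose transporter of the blood-brain barrier and of glia, measured 23.3, 24.9 and 26.8 CPM at 24 h and 63.4, 79.3 and 89.7 CPM at 72 h, with a log2 fold change of 1.63 ± 0.17 (edgeR adjusted p = 1.49e-06). Ldha, lactate dehydrogenase A, measured 266, 308 and 264 CPM at 24 h and 107, 134 and 168 CPM at 72 h, with a log2 fold change of -1.04 ± 0.15 (edgeR adjusted p = 6.84e-05). Ndrg1, a hypoxia-induced gene, measured 3.02, 1.73 and 2.44 CPM at 24 h and 37.5, 45 and 39.4 CPM at 72 h, with a log2 fold change of 4.10 ± 0.50 (edgeR adjusted p = 9.41e-06), but Egln3, another one, fell from 20.2 ± 3.24 to 8.73 ± 0.683 CPM (log2 fold change -1.21 ± 0.19, edgeR adjusted p = 0.000114). These targets of hypoxia moved in opposite directions. Pfkp rose by 0.96 ± 0.15 on the log2 scale (edgeR adjusted p = 9.69e-05), and the angiogenic factor gene Vegfa was not called (-1.28 ± 0.66, edgeR adjusted p = 0.179). Vegfa passed where the 6 libraries were fitted alone (edgeR adjusted p = 0.000426).

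In the ATF4 and unfolded protein list, 5 of 33 rose and 4 fell, near the share of all genes. Chac1, which degrades glutathione, rose from 0.888 ± 0.248 to 5.74 ± 1.08 CPM (log2 fold change 2.65 ± 0.62, edgeR adjusted p = 0.00397), and the disulfide isomerase gene Pdia4 measured 236, 257 and 209.8 CPM at 24 h and 356, 507 and 533 CPM at 72 h, with a log2 fold change of 0.99 ± 0.19 (edgeR adjusted p = 0.000651). Cebpb, a transcription factor of the stress response, rose by 1.70 ± 0.32 on the log2 scale (edgeR adjusted p = 0.000609). Of 26 genes of ribosome biogenesis, 1 rose and none fell; that gene, Polr1a, the largest subunit of RNA polymerase I, measured 54, 54.3 and 50.8 CPM at 24 h and 104, 114 and 114 CPM at 72 h, with a log2 fold change of 1.06 ± 0.18 (edgeR adjusted p = 0.000307). Of the 6 tested RNAs on the list of long nuclear noncoding and snoRNA host genes, which does not hold Rn7sk, 1 rose (Gas5) and none fell. Malat1 took 3.98% to 4.53% of counts at 24 h and 3.51% to 4.80% at 72 h.

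Some genes that the same rules named were called with all 6 libraries but not after 1 of them was left out. In the cell cycle lists, Ccnd1 (-1.23 ± 0.41) lost its call without any one library (edgeR adjusted p from 0.0525 to 0.118), Rbl1 (-0.71 ± 0.22) lost its call without 24 h replicate 1 or 2 or 72 h replicate 1 or 2 (edgeR adjusted p from 0.0548 to 0.104), Cdkn1c (1.51 ± 0.44) lost its call without 24 h replicate 3 (edgeR adjusted p = 0.0649) and Ccne1 (-1.69 ± 0.48) lost its call without 24 h replicate 2 (edgeR adjusted p = 0.0781). Among lipid genes, Fasn (-0.61 ± 0.20) lost its call without 24 h replicate 2 or 3 or 72 h replicate 1, 2 or 3 (edgeR adjusted p from 0.0516 to 0.123). In the lineage lists, Sirt2 (0.45 ± 0.13) lost its call without 24 h replicate 1 or 72 h replicate 2 or 3 (edgeR adjusted p from 0.0675 to 0.0926) and Nrxn3 (0.60 ± 0.19) lost its call without 24 h replicate 1 or 2 or 72 h replicate 1 or 2 (edgeR adjusted p from 0.0784 to 0.101). Among reactive astrocyte genes, Timp1 (-2.28 ± 0.67) lost its call without 24 h replicate 1 or 3 or 72 h replicate 3 (edgeR adjusted p from 0.0535 to 0.0789). Fkbp5 of the same list (-0.81 ± 0.28) lost its call without 24 h replicate 1, 2 or 3 or 72 h replicate 1 or 2 (edgeR adjusted p from 0.0675 to 0.121). Of matrix and chemokine genes, Col4a1 (-0.70 ± 0.24) lost its call without 24 h replicate 1, 2 or 3 or 72 h replicate 1 or 3 (edgeR adjusted p from 0.0791 to 0.13), and Cxcl12 (-1.48 ± 0.52) lost its call without 24 h replicate 1 or 3 or 72 h replicate 1, 2 or 3 (edgeR adjusted p from 0.0618 to 0.205). The ligand gene Bmp4 had 1 count at 24 h and 21 at 72 h, and Bmp4 (3.83 ± 1.20) lost its call without 24 h replicate 2 or 3 or 72 h replicate 3 (edgeR adjusted p from 0.0795 to 0.187). Of the contractile and early genes, Tagln (-2.06 ± 0.58) lost its call without 24 h replicate 2 or 72 h replicate 2 (edgeR adjusted p from 0.0558 to 0.0606), Cnn3 (0.51 ± 0.17) lost its call without 24 h replicate 1 or 3 or 72 h replicate 2 or 3 (edgeR adjusted p from 0.0689 to 0.189) and Atf3 (-1.07 ± 0.36) lost its call without any one library (edgeR adjusted p from 0.0566 to 0.111). For metabolism and stress, Gapdh (-0.50 ± 0.17) lost its call without 24 h replicate 2 or 3 or 72 h replicate 1 or 2 (edgeR adjusted p from 0.0981 to 0.187), Asns (-1.0 ± 0.28) lost its call without 24 h replicate 2 or 72 h replicate 1 (edgeR adjusted p from 0.0607 to 0.0612), Slc7a5 (-1.26 ± 0.36) lost its call without 24 h replicate 3 or 72 h replicate 3 (edgeR adjusted p from 0.0583 to 0.0726) and Shmt2 (-0.52 ± 0.19) lost its call without any one library (edgeR adjusted p from 0.0587 to 0.172). Finally Dnaic1 (0.94 ± 0.27) lost its call without 24 h replicate 1 or 72 h replicate 2 (edgeR adjusted p from 0.0905 to 0.0954), Fat1 (-0.67 ± 0.18) lost its call without 72 h replicate 2 or 3 (edgeR adjusted p from 0.0507 to 0.0512), Prrx1 (0.81 ± 0.26) lost its call without 24 h replicate 2 or 3 or 72 h replicate 2 or 3 (edgeR adjusted p from 0.0516 to 0.0827) and Gas5 (0.68 ± 0.18) lost its call without 72 h replicate 3 (edgeR adjusted p = 0.0571). Each of them kept its sign in all these fits. The value of Bmp4 was 5.86 without 24 h replicate 1, which leaves no counts at 24 h, 3.24 without 24 h replicate 2 and 2.78 without 72 h replicate 3, and that of Ccne1 was -2.40 without 72 h replicate 3.

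The levels of the same genes at the other untreated conditions are set beside these values without a test, since the NSP and 1 week comparisons would share libraries with this one. Gfap was 27.1 ± 13.7 CPM in NSPs and 63.4 ± 15.9 CPM at 1 week (mean ± SD, n = 3), so that the 72 h mean of 2432 ± 673 CPM was the highest of the 4. Apoe was 899 ± 513 CPM in NSPs and 995 ± 210.4 CPM at 1 week, beside 565 ± 12.1 CPM at 24 h and 2422 ± 599 CPM at 72 h. Gpld1 stood at 6.19 ± 2.19 CPM, 13.3 ± 1.02 CPM, 67.6 ± 8.36 CPM and 209 ± 19 CPM over the same 4 conditions, an increase at each step of the means. C4b stood at 7.06 ± 2.5 CPM in NSPs and 15.1 ± 5.18 CPM at 1 week, both below the 72 h level of 498 ± 126 CPM. Foxj1 was 27.8 ± 7.79 CPM in NSPs and 212 ± 26.1 CPM at 1 week, and Col8a2 was 0.305 ± 0.233 CPM and 175 ± 22.6 CPM. Ncan was 1279 ± 208 CPM in NSPs, below its 24 h level of 3464 ± 438 CPM, and 73.4 ± 9.09 CPM at 1 week. Id3 was 129 ± 33.8 CPM in NSPs and 23.9 ± 2.97 CPM at 1 week, beside 392 ± 56 CPM at 24 h. Fabp7 and Olig2 had their highest level in NSPs, with 2374 ± 406 CPM and 415 ± 25.3 CPM.

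**Figure D4:**
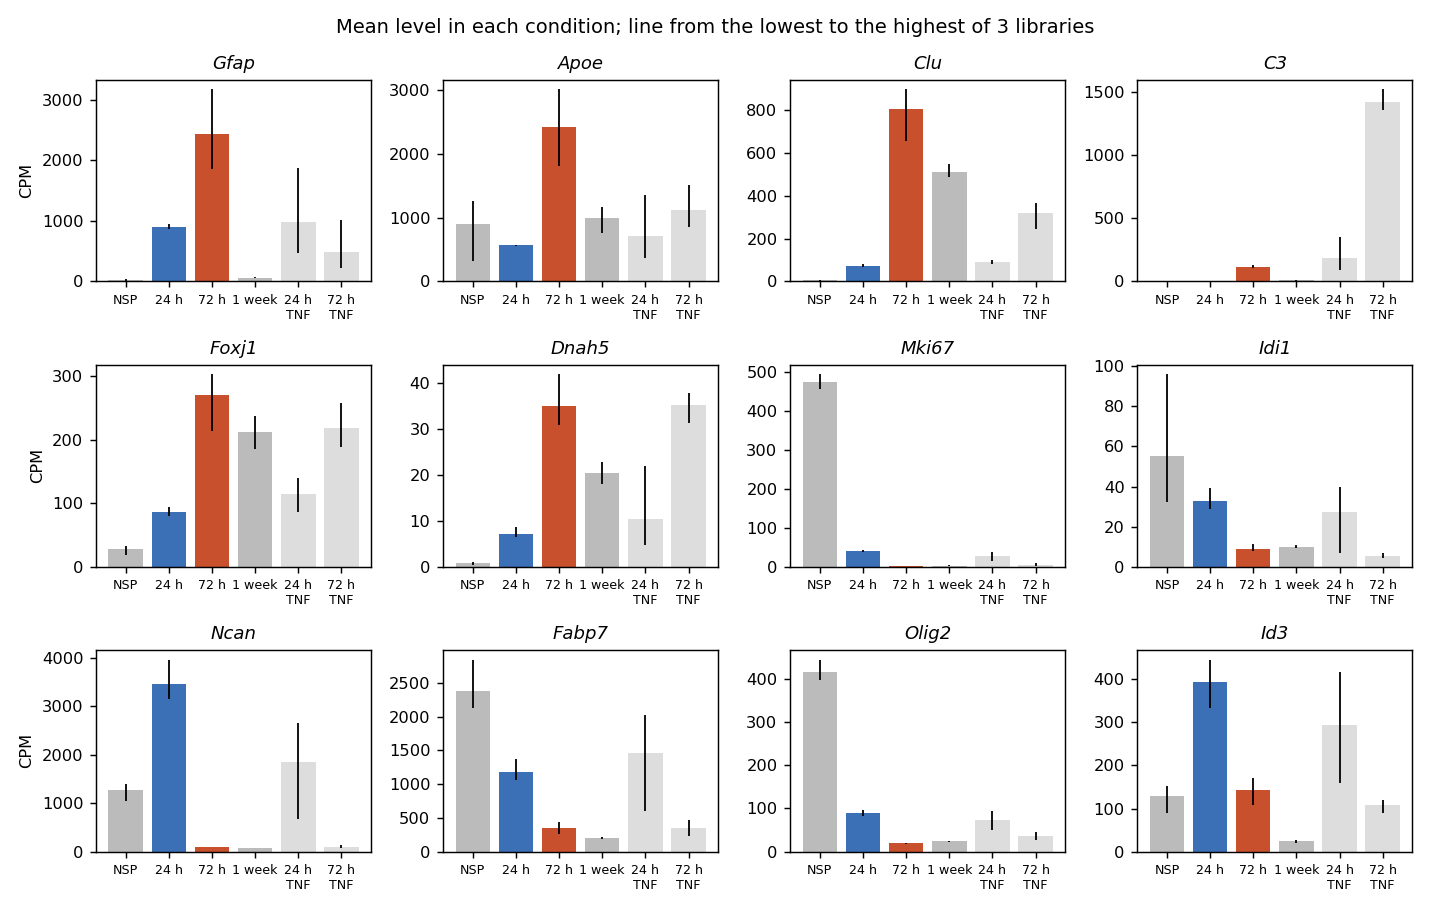
Mean CPM of 12 genes in the 6 conditions of the study, with lines from the lowest to the highest of the 3 libraries of each and with the 2 untreated times compared here in colour. Mki67 and Olig2 are highest in NSPs, Gfap, Apoe, Clu and Foxj1 are highest at 72 h without TNF, and C3 is highest at 72 h with TNF.

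The same interval was also sampled in cultures kept with TNF, whose libraries are in neither group of the untreated comparison but entered its fit, scaling and filter. Across the 20067 genes the log2 fold changes with and without TNF had a Pearson correlation of 0.723, which is across genes measured in the same libraries and not across independent replicates. With TNF, 5.38% of genes were higher and 7.93% were lower at 72 h. Of the 2439 genes that rose without TNF, 2261 (92.7%) had a positive log2 fold change with TNF, 841 were called in the same direction and 7 in the opposite one; their median log2 fold change was 0.94 without TNF and 0.49 with it. Of the 2531 genes that fell, 2392 (94.5%) had a negative value with TNF, 1121 were called in the same direction and none in the opposite one, with medians of -1.18 and -0.67. These genes were chosen on the untreated libraries, which makes their untreated values larger.

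The difference between the 2 changes was tested directly, with 24 h libraries in TNF that were spread more widely than the untreated ones (Ncan from 668 to 2660.2 CPM). It passed for 0.458% of the genes, that is for 92, and for 62 of the 2439 and 27 of the 2531. The number changed by over 1.5 times with the method, to 239 with DESeq2, 38 with only the groups compared, 56 under the filter of 10 counts in every library and 24 in the replicate block with the third 72 h library unpaired. It also changed with the libraries used: it was 25 without untreated 72 h replicate 2 or 3, 27, 31 and 28 without untreated 24 h replicates 1, 2 and 3, and 58 and 50 without TNF 72 h replicates 2 and 3. The 4 genes that follow passed in every fit. Clu rose by 3.45 ± 0.20 on the log2 scale without TNF and by 1.81 ± 0.19 with it, a difference of -1.63 ± 0.26 (edgeR adjusted p = 0.00775). Chrdl1 had log2 fold changes of 3.44 ± 0.15 without and 1.63 ± 0.14 with TNF, a difference of -1.81 ± 0.20 (edgeR adjusted p = 0.000255). Jag1 had -2.68 ± 0.18 without and -1.25 ± 0.16 with TNF, a difference of 1.42 ± 0.23 (edgeR adjusted p = 0.00884). Ccl2 had opposite changes, 2.54 ± 0.50 without TNF and -2.69 ± 0.30 with it, and stood at 26 ± 2.07 CPM at 24 h with TNF and 4.03 ± 0.313 CPM at 72 h with TNF.

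**Figure D5:**
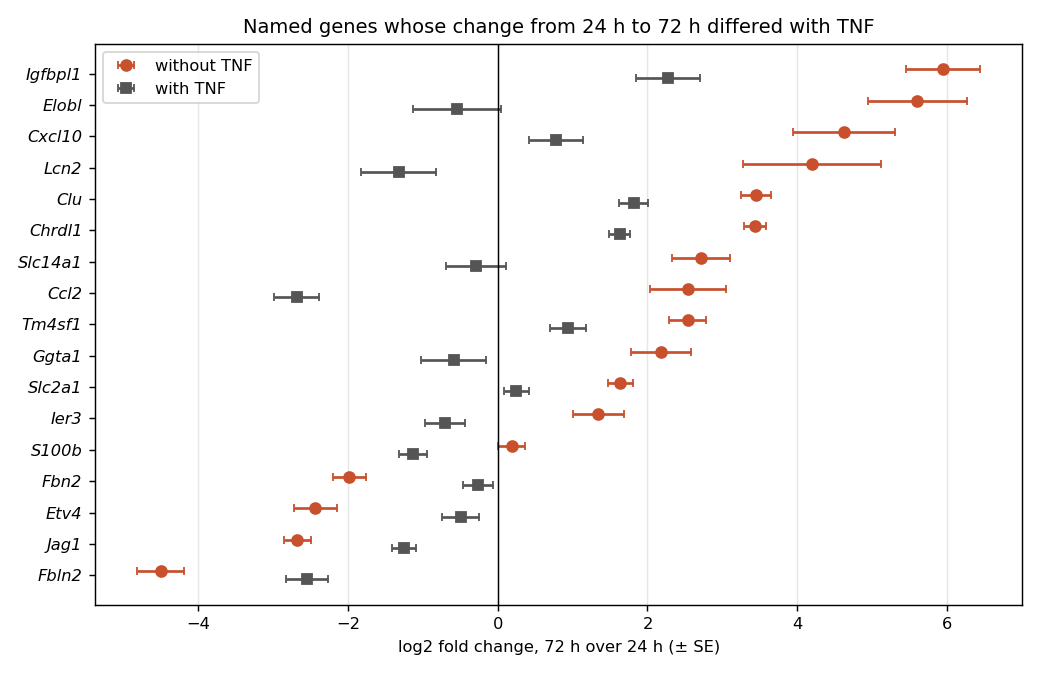
Log2 fold change (72 h over 24 h, error bars 1 SE from edgeR, 3 libraries in each group) without TNF (circles) and with TNF (squares) of the 17 named or listed genes whose change differed with TNF. Ccl2 and Lcn2 are among those to the right of 0 without TNF and to the left of it with TNF, at 2.54 and -2.69 for Ccl2.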

How the data were processed

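Total RNA from 18 libraries (6 conditions, 3 replicates each) was depleted of ribosomal RNA and sequenced with stranded libraries. The authors deposited whole-number gene counts, made per their processing notes with FastQC, Trim Galore, STAR, SAMtools and featureCounts on mm10; versions, the strand setting of the counting and how multi-mapped reads were counted are not given in the sources used here. Groups came from the labels. The third untreated 72 h column carries the number 4 and was taken as replicate 3 of its group.

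Counts were tested with edgeR 4.0.16 in R 4.3.3 (quasi-likelihood F test, TMM factors, filterByExpr by condition, all 18 libraries, Benjamini-Hochberg adjustment over 20067 genes of 54838, threshold 0.05). DESeq2 1.42.0, RLE factors, other filters, subsets of libraries and the replicate number as a block were alternatives, and the code was tested on simulated counts. SEs are the log2 fold change divided by the square root of F. Identifiers were matched to GENCODE M21, and promoters came from RefSeq on GRCm38.p6. Tables and figures used Python 3.11.15, pandas 2.3.3, scipy 1.17.1 and matplotlib 3.10.9. Total counts were 12509693 to 22549627 per library. Counting intervals are exact, at 95%, and cover counting error only.

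The comparison and the 28 gene lists were chosen with earlier results of these data known. Genes named are the 10 with the largest fold change in each direction (mean of at least 2 CPM, groups apart, no predicted-gene symbol), the 5 called with the largest change in CPM in each direction, list anchors, the 3 called members of each list with the largest change in each direction (mean of at least 1 CPM), and named or listed genes called in the interaction. Partners of these genes (Bmpr1a, Bmpr2, Cdc20, Cfap44, Col6a1, Col6a2, Cyp51, Dhcr7, Gmnc, Lss, Nsdhl, Prc1, Rfx2, Rfx3, Sdc2, Sdc4, Serping1, Srebf2 and Tekt1), genes at or near 0 counts and listed members that were not called were chosen after their values were seen. Some genes that the rule names are not reported here. Antisense genes and near-identical copies are uncertain.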

Additional observations from a re-analysis of the deposited data

Results flagged for a closer look

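The change from 24 h to 72 h differed between cultures without and with TNF for 92 genes in the test of the difference itself (edgeR, adjusted over all genes tested), and the 17 of them that are named or listed genes are given here. The values below are the log2 change with TNF minus that without TNF.

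In 13 of them the change was more negative with TNF. Ccl2, the monocyte chemokine, had -5.23 (edgeR adjusted p = 0.000255), from 2.54 without TNF and -2.69 with it. Chrdl1, the BMP antagonist, had -1.81 (edgeR adjusted p = 0.000255) and Clu, clusterin, had -1.63 (edgeR adjusted p = 0.00775), and both rose in either medium. The difference was -6.14 for Elobl, -3.68 for Igfbpl1, -5.52 for Lcn2, -3.84 for Cxcl10 and -2.77 for Ggta1, a glycosyltransferase gene. For Slc14a1, the urea transporter, it was -3.01, for the glucose transporter gene Slc2a1 -1.39, for Tm4sf1 -1.6 and for Ier3, an immediate early gene, -2.04. S100b had -1.32, with a log2 fold change of 0.187 without TNF and -1.13 with it.

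In 4 genes that fell without TNF the change was less negative with it. Jag1 had a difference of 1.42 (edgeR adjusted p = 0.00884), Fbn2, fibrillin 2, had 1.72, Etv4 had 1.94 and Fbln2 had 1.95.

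Ccl2, Chrdl1, Clu and Jag1 passed in each of the 18 or 19 alternatives that gave them a value. The others did not: Slc2a1 passed in 18 of 19 (highest adjusted p = 0.053), Elobl in 17 of 18 (0.0514), Fbn2 in 16 of 19 (0.0676), Igfbpl1 in 14 of 19 (0.0987), Lcn2 in 12 of 18 (0.108), Etv4 in 10 of 19 (0.122), Slc14a1 in 9 of 18 (0.104), Cxcl10 in 8 of 18 (0.17), S100b in 8 of 19 (0.199), Tm4sf1 in 7 of 19 (0.185), Fbln2 in 5 of 19 (0.267), Ggta1 in 5 of 18 (0.199) and Ier3 in 3 of 18 (0.199).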

How the results depend on the processing

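The number of genes called between 24 h and 72 h was 4970. It was 5050 with DESeq2, 4970 with RLE factors, 4746 and 3746 under the filters of 5 counts in total and of 10 counts in every library, 5538 with the 6 libraries fitted alone, and between 3494 and 5200 with 1 library left out. Requiring a log2 fold change of at least 1 left 2681, and an unadjusted p-value under 0.05 gave 7124. Of the calls, 96.0% were also made by DESeq2 and 70.4% under the strictest filter, which tests fewer genes.

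The replicate numbers share only a number in the labels. Deviations of same-numbered 24 h and 72 h libraries correlated at 0.0767, 0.117 and -0.371, not over 0.1 for every pair, and not every library correlated best with its own number. With the replicate block 4830 genes were called, and with the third 72 h library, whose column carries another number, left unpaired in the block, 3286.

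The number of genes whose change differed with TNF was 92. It was 239 with DESeq2, 56 under the filter of 10 counts, 38 with only the groups compared, 65 with the replicate block, 24 with that library unpaired in the block and 2018 at an unadjusted p-value under 0.05. Leaving out 1 library gave 25 to 133 (25 without untreated 72 h replicate 2, 133 without TNF 72 h replicate 1).

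Of 163 called genes in the text, 134 kept call and direction in every alternative. In the replicate block 3 of them (Col4a1, Fkbp5 and Shmt2) lost the call, and with the third 72 h library unpaired 21 did, of which Notch1 (edgeR adjusted p = 0.05) lost it in no other alternative. The rest, among them Fat1, B2m, Gas5, Sox2 and Rn7sk, also lost it with some library left out. DESeq2 lost Cxcl12, and the filter of 5 counts lost Cxcl12 and Shmt2. Of genes in the text not called, Abca1, Acta2, Aqp4, Cdkn1a, Fos, Gfap, Gja1, Mcm2 and Vegfa passed with the 6 libraries fitted alone. Ctsd passed without 24 h replicate 2 or 72 h replicate 1. Pcna, not called, changed sign: its log2 fold change was -0.0640 with the block and the unpaired library, and -0.0296 to 0.33 with 1 library left out. The cause was not tested for any of these shifts. With 3 libraries a group, members under about 1 CPM rest on few counts.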

Other observations

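Calls were unequal between classes of genes, beside 12.2% higher and 12.6% lower over all genes tested. Of 13784 protein-coding genes, 15% were higher and 13.6% lower at 72 h. Of 1643 loci of the class TEC, which are unspliced transcripts awaiting experimental evidence, 3.47% were higher and 16.8% lower, and of 1278 antisense genes 5.56% were higher and 9.47% lower. Sense-intronic transcripts were higher in 0.469% and lower in 13.1% of 213. Of 783 long intergenic noncoding RNAs, 12% were higher, near the share of all genes, and 9.07% lower.

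Protein-coding genes that fell had a median summed exon length of 5562 bases, those that rose 4320 bases, those not called 4376 bases and all tested 4520 bases. How far length itself entered the calls was not tested.

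In the 300 bases around the start, the letters CCAAT were present in 43.5% of promoters of genes that rose and 44.1% of those that fell, beside 42.4% of all, and TTTGAA in 15.7% and 16.4% beside 14.5%. TGACTCA, read by AP-1 factors, was in 5.07% and 4.68% beside 4.59%, and CATTCCA, read by TEAD factors, in 3.7% and 4.22% beside 3.65%. GTTGCCAT was in 2.85% of promoters of genes that rose, 1.19% of those that fell and 1.48% of all.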
